A study of Mus musculus with 24 samples.

Results

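The Gnas locus on mouse chromosome 2 was described through every row of the deposited expression table that carried the gene symbol Gnas or Nespas. There were 4 such rows of 33079 in all, 3 for Gnas and 1 for Nespas, and all 4 were among the 15112 rows taken as expressed, with a mean above 0.5 RPM (reads scaled to the library total) in at least 1 genotype. Nespas passed this limit only through the WT libraries. The rows were chosen by symbol, but the locus was picked with results of these data in view, so the levels in the knockout and the control are given as a description, without a test.

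The libraries came from a time course in differentiated mouse embryonic stem (ES) cells that asked how loss of REV-ERBα together with REV-ERBβ, nuclear receptors that repress transcription in the circadian clock, alters gene expression. The control (WT) and the deficient (KO) cells both carried the Per2::Luciferase knock-in, a luciferase reporter fused to a clock gene, and KO cells in addition lacked functional Rev-erbα and Rev-erbβ after exons of both genes were deleted with CRISPR/Cas9. Cells of both genotypes were differentiated as embryoid bodies for 28 days, treated with 100 nM dexamethasone, a synthetic glucocorticoid used to set cell clocks to a common phase, and frozen every 4 h from 12 to 56 h later. At each of the 12 time points 1 WT and 1 KO library was made from the RNA of 3 pooled embryoid bodies, which gave 12 libraries per genotype and no replicate of a time point. Rev-erbα was targeted in an established Rev-erbβ-deficient line grown from a picked colony, and the genotypes were represented by 1 line each in the sources used here. An effect of the deletions and a difference between the lines therefore cannot be told apart.

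Gnas encodes the stimulatory G protein subunit Gsα, which couples hormone receptors to adenylyl cyclase and so to cyclic AMP. It is a complex imprinted locus: alternative first exons are spliced to a common set of downstream exons, and the promoters differ in which parental allele is active. Nesp transcripts, which encode the neuroendocrine secretory protein NESP55, come from the maternal allele, and transcripts of the extra-large subunit XLαs come from the paternal allele. Nespas is a noncoding RNA made from the paternal allele, antisense to Nesp, and its transcription is needed for silencing of the paternal Nesp promoter. Gsα itself is expressed from both alleles in most tissues. The table holds no allele information, so parental origin was not measured here.

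Positions are those of GRCm38, the build of the table. The Nespas row (uc012ckw.1) spanned chr2:174281237-174295436 on the minus strand, with an exonic length of 2261 bases. The first Gnas row (uc008oer.2) spanned chr2:174284320-174338090 on the plus strand, with 1646 bases, and starts at the Nesp first exon, and it is called the Nesp row here. The other Gnas rows (uc008oeu.2 and uc008oew.2) both spanned chr2:174297859-174346742 on the plus strand, with 3747 and 3841 bases, and start at the XLαs first exon. They are called the XL rows. No row starts at the first exon of Gsα.

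**Figure D1:**
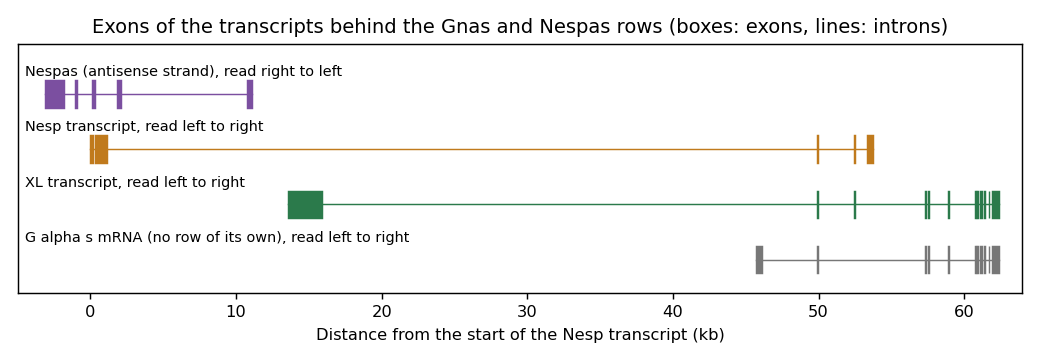
Exons of the transcripts of the locus, with distance from the Nesp start in kilobases on the x axis and 1 line per transcript. Bars mark exons. The XL transcript and Gsα share their downstream exons, while the Nesp transcript, which has 5 exons, shares 118 of its 1645 bases with the XL transcript.

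The exons of these rows were taken from the GENCODE transcripts that start at the same base. Of the 1645 bases of the Nesp transcript (Gnas-222), 1416 bases, or 86.1%, were in none of the other transcripts considered, and 111 bases, or 6.75%, lay opposite Nespas exons. The XL transcript (Gnas-223) had 12 exons and 3729 bases, of which the first exon made up 2359 bases, or 63.3%. It shared 1325 bases, or 35.5%, with the Gsα transcript (Gnas-207), which is 74.1% of the 1789 bases of Gsα. Fragments from Gsα therefore could be counted on the XL rows, and the values of the XL rows cannot be read as XLαs alone. The Nesp transcript ends before most of the exons common to XL and Gsα, so any longer Nesp transcript that continued into them would be counted there too. The Nesp transcript also shared 118 bases with the XL transcript, 73 of them also in Gsα. The XL row uc008oeu.2 had a mean of 819 RPM in WT and 627 in KO, against 84.3 and 34.8 for the Nesp row. Fragments on the shared bases were not counted apart, so the values of the Nesp row cannot be read as Nesp alone. The library kit does not mark strand, so fragments in the overlap of Nesp and Nespas could be counted for either. In WT the Nespas row held a mean of 3.72 RPM, far below the Nesp row. Fragments from Nesp could therefore make up a part of the Nespas row, and the size of that part was not measured.

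The sequences below show what sets the rows apart. The first is the start of the Nespas transcript (chr2:174295317-174295436, minus strand), and the next are the first coding bases of Nesp (chr2:174284674-174284793, plus strand) and of XLαs (chr2:174297862-174297981, plus strand). All are written 5′ to 3′ and come from the GENCODE transcripts.
Nespas, first 120 bases: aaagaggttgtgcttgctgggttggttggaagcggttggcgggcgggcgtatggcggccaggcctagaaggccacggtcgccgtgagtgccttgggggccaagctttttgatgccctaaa
Nesp, first 120 coding bases: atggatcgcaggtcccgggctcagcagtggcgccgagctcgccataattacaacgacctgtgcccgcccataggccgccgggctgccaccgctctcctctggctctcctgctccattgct
XLαs, first 120 coding bases: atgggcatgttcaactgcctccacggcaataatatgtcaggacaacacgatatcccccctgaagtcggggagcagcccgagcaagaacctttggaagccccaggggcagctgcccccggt

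Fragments on exons ran from 6183500.5 to 10287969 per library. The WT libraries of 36 and 44 h were the least like the others, with a median r of 0.975 and 0.980 over the log2 values, while the other 22 lay between 0.982 and 0.986. They also had the highest summed neuroendocrine and neuronal markers, at 44.9 and 31.4 RPKM, and values without them are given beside the results they move. The labelled state of the cells, differentiated ES cells, was checked with markers. Nanog was at 0.198 and 0.164 RPKM and Pou5f1 at 0.924 and 0.828 in WT and KO, while the collagen gene Col1a1 was at 842 and 972. The rows of the deleted genes do not check the genotype, since they count every exon: Nr1d1 ranged from 3.58 to 7.48 RPKM in WT and from 2.48 to 9.74 in KO.

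All 4 rows were lower in KO than in WT at 12 of 12 time points, and the WT and KO ranges did not overlap for any of them. The neighbouring gene Stx16 was also lower in KO at 12 of 12 time points, with ranges that overlapped. Among all expressed rows, 0.410% had ranges that did not overlap and were lower in KO, and 0.609% had ranges that did not overlap in either direction. The rows differed in how far apart the genotypes lay. The KO mean was 0.0786 of the WT mean for Nespas, 0.413 for the Nesp row, and 0.766 for each of the XL rows, while the median ratio over all expressed rows was 0.990. Without the WT libraries of 36 and 44 h the ratios were 0.0803, 0.409 and 0.766 for Nespas, the Nesp row and the XL row uc008oeu.2. In bulk RNA, fewer cells that express a transcript and less RNA per cell cannot be told apart.

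Of the 4 rows, that of Nespas, the antisense RNA, had the lowest level and the widest gap between the genotypes. The Nespas row may hold Nesp fragments from the 111 bases of overlap, so its values cannot be read as antisense RNA alone. In WT its level ranged from 1.13 RPKM (reads scaled to exon length in kilobases and to library total) at 40 h to 2.27 at 24 h, with a median of 1.64. In KO it ranged from 0.0762 RPKM at 24 h to 0.199 at 52 h, with a median of 0.124. Every WT library was thus above every KO library by a wide margin. The mean was 1.64 ± 0.317 RPKM in WT and 0.129 ± 0.0398 in KO (SD, n = 12 time points each), a level 12.7-fold higher in WT. At matched times the KO to WT ratio ran from 0.0336 at 24 h to 0.131 at 32 h. Nespas had the 8th lowest ratio of the 15112 expressed rows.

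The depth behind the Nespas values was small. WT libraries held 44.5 to 92.0 fragments on this row, and KO libraries held 3.0 to 9.0. Over all libraries of a genotype this came to 785.5 fragments in WT and 61.5 in KO. The KO signal was above 0 in every library, but its ordering between time points rests on few fragments.

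The Nesp row, which holds the exons of NESP55 and some bases shared with XL and Gsα, came second. Its WT level ranged from 46.9 RPKM at 40 h to 56.1 at 52 h, with a median of 52.0. Its KO level ranged from 19.05 RPKM at 36 h to 23.5 at 40 h, with a median of 21.2. The lowest WT library therefore lay above the highest KO library. The means were 51.2 ± 2.98 RPKM in WT and 21.2 ± 1.47 in KO (SD, n = 12 each), a level 2.42-fold higher in WT. The ratio at matched times ran from 0.367 at 16 h to 0.50 at 40 h, where WT was at its lowest and KO at its highest. These values rest on 1164.5 to 1884 fragments per WT library and 431 to 780 per KO library. Ranked by level among the expressed rows, the Nesp row stood 528th in WT and 1572nd in KO.

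**Figure D2:**
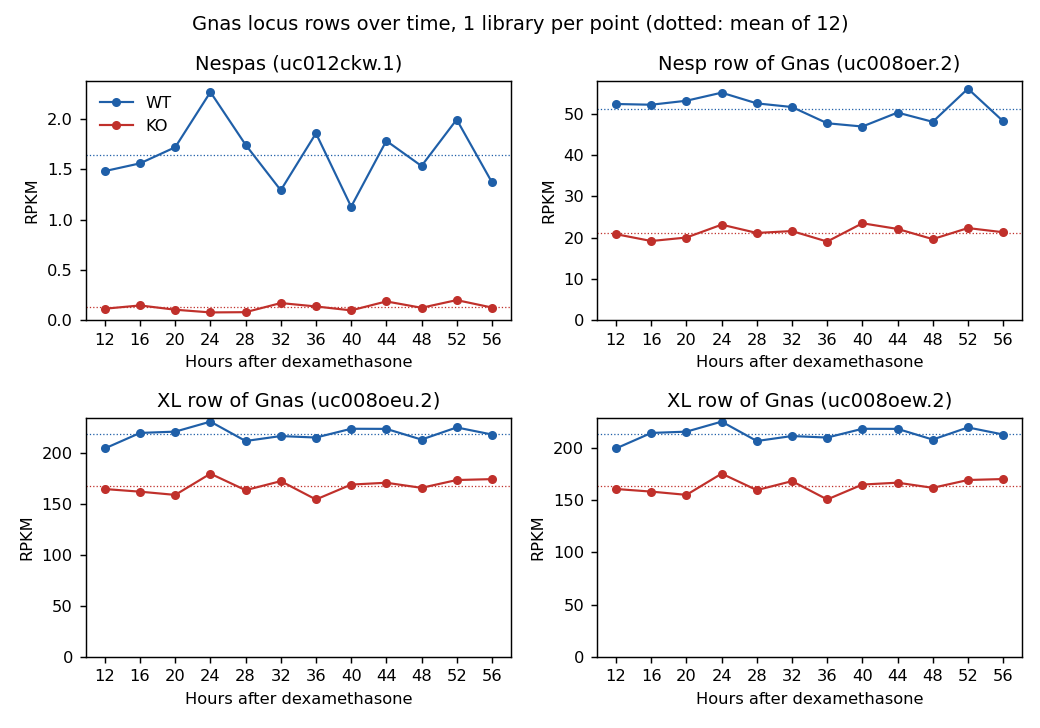
Level of each row (RPKM, y axis) against hours after dexamethasone (x axis) in the 12 WT and 12 KO libraries, with 1 point per library and dotted lines at the mean of 12. The KO points lie below the WT points at all 12 times in every panel, by the widest factor for Nespas and the narrowest for the XL rows.

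The XL rows had by far the highest levels of the locus. The uc008oeu.2 row ranged in WT from 205 RPKM at 12 h to 231 at 24 h, with a median of 219. In KO it ranged from 154 RPKM at 36 h to 180 at 24 h, with a median of 167. The mean was 219 ± 7.02 RPKM in WT and 167 ± 7.21 in KO (SD, n = 12 each), a level 23.4% lower in KO. At matched times the ratio stayed between 0.717 and 0.805. The uc008oew.2 row had means of 213 ± 6.84 RPKM in WT and 163 ± 7.04 in KO, with the same ratio of 0.766.

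These XL rows are not separate measurements. Their fragment numbers differed by at most 7.5 per library, or 0.0590%, although uc008oew.2 is 94 bases longer. The same fragments were counted on both, and they are taken as 1 measurement from here on, of the XL first exon and the downstream exons together.

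The KO to WT ratio and the difference in amount both rose from Nespas to the Nesp row to the XL rows. The widest gap in fold terms thus went with the smallest difference in amount. On the RPM scale, which does not divide by length, the genotypes differed by 192 RPM for the XL row uc008oeu.2, from a mean of 819 in WT to 627 in KO. For the Nesp row the difference was 49.5 RPM, from 84.3 to 34.8. For Nespas it was from 3.72 to 0.292 RPM. The ratio of the Nesp row to the XL row within a library, both in RPKM, was 0.210 to 0.256 in WT with a median of 0.238. In KO it was 0.118 to 0.139 with a median of 0.126. The balance of these rows thus differed between all WT and all KO libraries, on a measure that the scaling to library total does not touch. The rows share 118 bases, and fragments from Gsα could fall on both. It is therefore a ratio of rows and not of Nesp to XL transcripts.

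**Figure D3:**
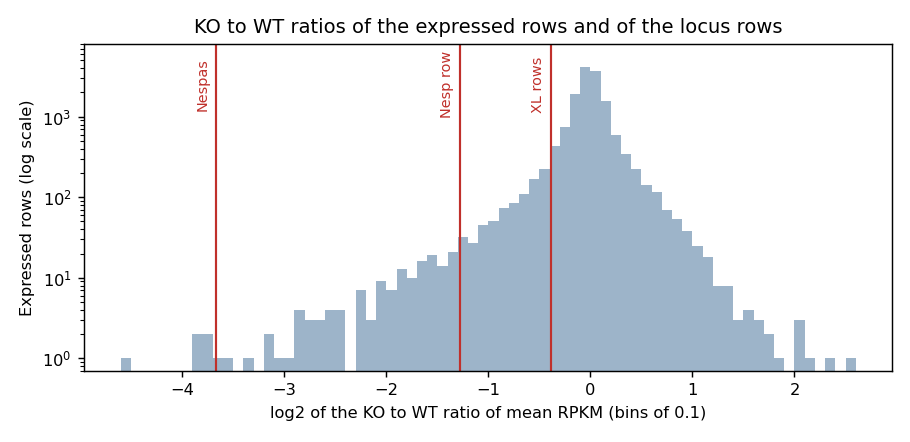
Number of expressed rows (y axis, log scale) by log2 of the KO to WT ratio of mean RPKM (x axis), with the rows of the locus marked. Most of the 15112 rows lie near 0, and the locus rows lie at -3.67 for Nespas, -1.28 for the Nesp row and -0.38 for the XL rows.

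The genes around the locus were set beside it. The 5 table rows on each side were taken, of which Stx16, Npepl1, Nelfcd, Ctsz, Atp5e and Slmo2 were expressed. The KO to WT ratio was 0.906 for Stx16, a syntaxin of vesicle transport, with means of 10.2 ± 0.880 and 9.24 ± 0.709 RPKM. Stx16 was lower in KO at 12 of 12 times, like the rows of the locus. For Npepl1, an aminopeptidase-like gene, it was 1.29, with means of 6.58 and 8.51 RPKM. The ratios of Nelfcd, Ctsz, Atp5e and Slmo2 were 0.967, 1.07, 1.11 and 1.08. In all 6 genes the WT and KO ranges overlapped, as they did in all but 0.609% of the expressed rows. The rows of Mir296 and Mir298, which lie between Npepl1 and Nespas, held 0 to 1.0 fragments per library in poly(A)-selected RNA. Inside the locus, the row AK085136 (chr2:174331577-174333958, plus strand) had means of 1.27 ± 0.313 RPKM in WT and 0.861 ± 0.150 in KO, lower in KO at 11 of 12 times, with ranges that overlapped.

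**Figure D4:**
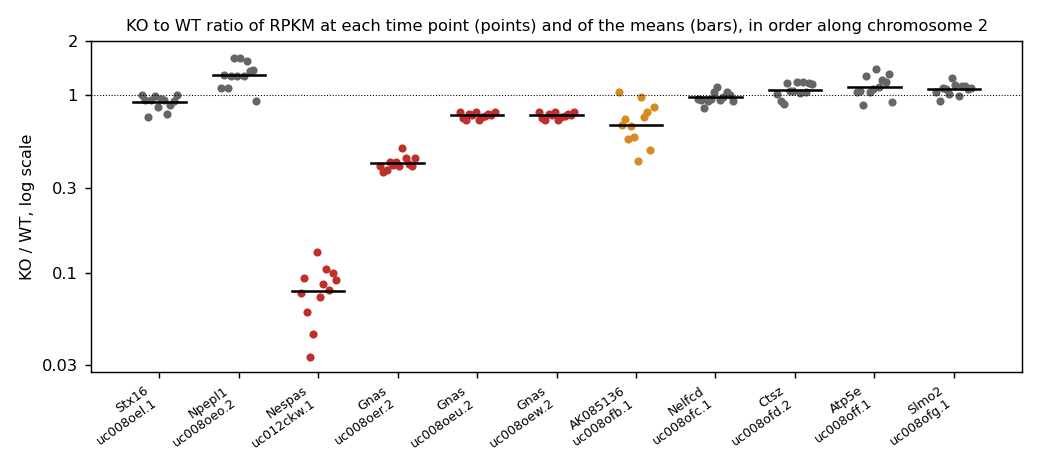
KO to WT ratio of RPKM (y axis, log scale) for the expressed rows in the order of their position on the chromosome (x axis), with points for the 12 time points and a bar for the ratio of means. By ratio of means, Nespas, the Nesp row and the XL rows lie below the neighbours, whose ratios of means run from 0.906 to 1.29. Points of the XL rows and of Stx16 overlap. AK085136, inside the locus, has a ratio of means of 0.678.

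As the antisense RNA runs through the Nesp start, the 250 bases before that start are shown (chr2:174284070-174284319, plus strand, RefSeq GRCm38.p6). The capitals mark the reverse complement of the letters TATAA, with a first base at -30 from the start.
Nesp promoter: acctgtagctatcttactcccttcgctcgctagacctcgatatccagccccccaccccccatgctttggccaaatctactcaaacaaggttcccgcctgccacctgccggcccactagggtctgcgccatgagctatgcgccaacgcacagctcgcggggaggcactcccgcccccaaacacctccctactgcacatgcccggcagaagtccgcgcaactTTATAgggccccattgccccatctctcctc

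Motifs were searched by their letters on both strands of these bases. TATAA was found once, and 22.8% of the 32851 RefSeq promoters of the same length hold it. AGGTCA, the core of the element bound by REV-ERB and ROR receptors, was not found in this window and is held by 14.0% of promoters. CACGTG, the E-box of the clock factors CLOCK and BMAL1, was not found either (6.02% of promoters), nor was TGACGTCA, the cyclic AMP response element (1.55%), nor CCAAT (33.8%). The window held 14 CG dinucleotides, against a median of 6, and 29.4% of promoters held at least as many. Its G and C content was 61.6%. No promoter of Nespas was at hand.

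The rule for the rows does not use the time after dexamethasone, so changes over time were tested, although whether the course over time played a part in the choice of the locus is not known. Each row was fitted on the log2(RPKM + 0.1) scale with limma, with a linear trend and a 24 h cosine and sine for each genotype, and p values were adjusted over all 15112 expressed rows by the Benjamini-Hochberg method. With this test 0 of the 3 measurements (Nespas, the Nesp row and the XL rows) passed for a 24 h rhythm in WT. In KO neither the Nesp row nor the XL rows passed. Of all rows, 0.0397% were called in WT and 0.0794% in KO. The fitted amplitude in WT was 0.22 (log2) for Nespas, with a limma adjusted p of 0.678. It was 0.08 for the Nesp row (limma adjusted p = 0.690) and 0.03 for the XL row uc008oeu.2 (limma adjusted p = 0.804). In KO the amplitude was 0.03 for both the Nesp row and the XL row, with limma adjusted p of 0.964 and 0.909. The KO values of Nespas, which lay under the limit for expression and rest on 3.0 to 9.0 fragments, are too thin to test for a change over time or for a difference from WT. The difference in rhythm between the genotypes had an unadjusted limma p of 0.636 for the Nesp row and 0.512 for the XL row. No row of the table passed the adjusted threshold for that difference (0.00%), and 745 rows had an unadjusted p under 0.05.

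No linear trend passed the test in WT in Nespas, the Nesp row or the XL rows. In KO none passed in the Nesp row or the XL rows. Of all rows, 2.89% were called in WT and 3.14% in KO. The Nesp row had a slope of -0.09 (log2 per 24 h, SE 0.0482) in WT, with a limma adjusted p of 0.372, and 0.03 in KO, with 0.785. The Nespas slope was -0.13 (SE 0.137) in WT, with a limma adjusted p of 0.737. The XL row uc008oeu.2 had slopes of 0.02 in both genotypes (limma adjusted p = 0.806 and 0.792). The difference of slopes, KO minus WT, was 0.13 (SE 0.0681) for the Nesp row, with a limma adjusted p of 0.789. For all rows of the table the share called for that difference was 0.00%, with 982 rows at an unadjusted p under 0.05. With 1 library per time point, the residual around the fitted curve is the only error in these tests. WT and KO libraries shared the same estimate of the spread for each row. The WT tests of Nespas for rhythm and trend therefore also hold the noise of its thin KO values.

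How the rows varied together was described by Pearson's r of log2 values within a genotype, over 12 libraries that share their depth and scaling with both rows. The Nesp row and the XL row uc008oeu.2, which share exons, had an r of 0.249 in WT and 0.800 in KO. For Nespas and the Nesp row r was 0.618 in WT and -0.0945 in KO. These rows overlap by 111 bases on opposite strands, so the same fragments may have been counted on both. For Nespas and the XL row it was 0.348 and 0.0830. The KO values of Nespas behind these rest on 3.0 to 9.0 fragments.

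The genes most like each row over time were found among 12238 rows with a mean of at least 1 RPKM, as the highest r over all 24 libraries after the genotype means were removed. For the Nesp row these were Hand2 (0.694), a transcription factor of heart and limb, Fbln1 (0.689), an extracellular matrix protein, Lpar1 (0.649), a receptor for lysophosphatidic acid, Hspb7 (0.630), a small heat shock protein, and Prelp (0.620), a matrix proteoglycan. For the XL row uc008oeu.2 they were Dync2li1 (0.668), a dynein subunit of cilia, Islr (0.658), Rhobtb1 (0.638), the kinase Akt2 (0.629) and the chemokine Cxcl12 (0.626). For Nespas they were Ift122 (0.675), a protein of intraflagellar transport, Habp4 (0.632), DQ566411 (0.618), Thumpd2 (0.613) and Moxd1 (0.575). The KO values of Nespas in these r rest on 3.0 to 9.0 fragments per library, so counting noise enters them. Each r is the highest of many computed over the same 24 libraries, and is given as a description.

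NESP55 is a protein of neuroendocrine cells, and markers of such cells differed between the genotypes as well. Of 12 neuroendocrine and neuronal markers 11 were expressed, 9 fell in KO and 0 rose (limma, adjusted p under 0.05), where 14.7% of all rows fell and 11.5% rose, or 26.3% in either direction. Without the WT libraries of 36 and 44 h 6 fell. With a mean of at least 1 RPKM required 1 fell, but only Scg2, Stmn2 and Tubb3 met that limit and were tested. The median log2 fold change of the 11 was -1.03, against -0.01 over all rows. Scg2, a secretogranin of secretory granules, went from 1.24 ± 0.923 RPKM in WT to 0.322 ± 0.113 in KO (log2 fold change -1.45, limma adjusted p = 2.61e-04). Stmn2, a neuronal tubulin-binding protein, went from 2.03 to 0.708 RPKM (limma adjusted p = 0.0492), a call lost under 5 alternatives (limma adjusted p of 0.0522 to 0.159, the highest without the WT libraries of 36 and 44 h). Tubb3, the neuronal tubulin, had means of 8.05 ± 5.84 and 4.06 ± 2.5 RPKM and did not pass (limma adjusted p = 0.0670). The defining granule markers Chga and Scg3, named here after their values were seen, fell, with log2 fold changes of -0.76 and -1.86 (limma adjusted p = 0.00630 and 2.08e-04). The prohormone convertase Pcsk1 was close to 0 in both genotypes, with means of 0.0148 and 0.0167 RPKM.

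The summed level of the 12 markers, of which Tubb3 was the highest, ranged from 5.66 to 44.9 RPKM in WT, with a median of 15.4, and from 3.22 to 13.8 in KO, with a median of 5.39, so that the ranges overlapped. Without the WT libraries of 36 and 44 h the WT range was 5.66 to 24.0. Within WT the summed level had an r of -0.224 with the Nesp row over 12 libraries, and within KO an r of -0.591. The part of these markers in the lower level of the Nesp row in KO was not tested. For Nespas the values were 0.159 and -0.0576, and for the XL row uc008oeu.2 -0.0679 and -0.333.

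**Figure D5:**
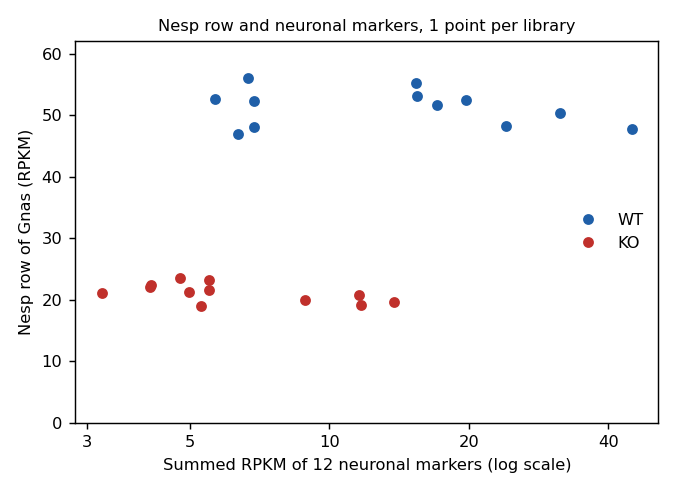
Level of the Nesp row (RPKM, y axis) against the summed RPKM of 12 neuroendocrine and neuronal markers (x axis, log scale), with 1 point per library. The WT and KO points overlap along the x axis and are separate along the y axis, at 46.9 to 56.1 RPKM in WT and 19.05 to 23.5 in KO.

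Because the locus encodes Gsα, the genes of its pathway were counted from lists, starting with the other G protein subunits. Beside each count stand the shares of all expressed rows, 11.5% that rose and 14.7% that fell. Of 12 other α subunits 1 rose and 1 fell, near those shares. Gnao1, the Go subunit abundant in neurons, fell from 3.05 ± 0.491 to 2.12 ± 0.316 RPKM (log2 fold change -0.50, limma adjusted p = 1.05e-04). Gna15 rose from 1.21 to 1.5 RPKM (limma adjusted p = 0.00567). Gnal, the olfactory relative of Gsα that also stimulates adenylyl cyclase, had means of 0.871 and 0.860 RPKM. Gnai2, an inhibitory subunit and the highest of the list, had means of 98.5 and 99.9 RPKM (limma adjusted p = 0.540). Of 13 expressed β and γ subunits 2 rose, Gng11 from 1.92 to 2.97 RPKM and Gng5 from 63.2 to 71.9, and 3 fell, among them Gnb4 from 5.50 to 4.89.

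Upstream of Gsα, 12 of 35 Gs-coupled receptors were expressed, of which 3 rose and 1 fell, against 11.5% and 14.7% of all rows. Vipr1, a receptor of vasoactive intestinal peptide, fell from 2.8 ± 0.363 to 1.52 ± 0.301 RPKM, lower at 12 of 12 times (log2 fold change -0.85, limma adjusted p = 3.53e-07). Pth1r, the parathyroid hormone receptor and the highest of the list, had means of 5.33 and 4.71 RPKM and did not pass (limma adjusted p = 0.0917). Of 6 activators and regulators of Gs, 1 fell, Gpsm1, from 4.16 to 3.27 RPKM. The chaperone Ric8a had means of 11.3 and 11.4 RPKM.

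Downstream, 3 of 7 expressed adenylyl cyclases fell, against 14.7% of all rows, and 0 rose. Adcy1 went from 2.52 to 2.14 RPKM, Adcy6 from 9.88 to 9.34 and Adcy9 from 1.48 to 1.31, with limma adjusted p of 0.0217, 0.0260 and 0.0436. Under quantile normalization 2 fell, and without the WT libraries of 36 and 44 h 1 fell. The Adcy9 call was lost under 4 alternatives, with limma adjusted p of 0.0503 to 0.109. Of 10 expressed genes for protein kinase A, its inhibitors and Epac, 1 fell, the inhibitor Pkia, from 3.32 ± 1.21 to 2.29 ± 0.370 RPKM. The regulatory subunit Prkar1a, the highest of them, had means of 51.1 and 50.2 RPKM (limma adjusted p = 0.392). Of 14 expressed phosphodiesterases that degrade cyclic AMP, 2 rose and 2 fell. Pde2a rose from 0.988 to 1.45 RPKM and Pde7a from 2.38 to 2.70, while Pde3a fell from 7.71 to 6.25 and Pde4a from 2.00 to 1.75.

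Among 18 expressed CREB factors and genes induced by cyclic AMP, 8 fell and 2 rose, against 14.7% and 11.5% of all rows, with a median log2 fold change of -0.10. The nuclear receptor Nr4a1 fell from 3.11 to 2.59 RPKM, at 12 of 12 times (limma adjusted p = 0.00249), and the CREB coactivators Crtc1 and Crtc3 fell from 3.21 to 2.78 and from 4.50 to 3.94. The kinase Sik1, which cyclic AMP also induces, rose from 8.31 to 9.95 RPKM (limma adjusted p = 3.86e-04), and Junb rose from 30.3 to 34.0.

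Imprinted genes of other loci were counted as well. Of 41 expressed, 10 fell and 3 rose, against 14.7% and 11.5% of all rows, with a median log2 fold change of -0.09. Grb10, a growth-restraining adaptor protein, fell from 52.9 ± 3.84 to 2.29 ± 0.271 RPKM (log2 fold change -4.48, limma adjusted p = 1.90e-28). Its KO to WT ratio of 0.0433 was below the 0.0786 of Nespas. Dlk1, a growth regulator related to Notch ligands, fell from 112 ± 24.2 to 76.9 ± 12.6 RPKM, lower at 12 of 12 times. Zdbf2 fell from 6.13 to 4.82 RPKM and the transcription factor Plagl1 from 138 to 112. Igf2, the growth factor with the highest level of the list, had a ratio of 0.992 (limma adjusted p = 0.898).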

How the data were processed

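Poly(A)-selected RNA of 24 libraries was prepared with the TruSeq RNA kit, which does not mark strand, and sequenced as paired reads. The submitters' processing notes name Trimmomatic 0.36, STAR 2.5.4b, SAMtools and HOMER, and GRCm38. The authors counted reads on the exons of UCSC genes and deposited the result as RPKM, scaled to exonic length and library total. The exonic length in bases and the library total, deposited beside the values, were used to obtain RPM and fragments. All 100% of these values were multiples of 0.5 fragment (tolerance 0.01), and fragments served to describe depth only, with counting error and no more. The use of strand in counting is not given in the sources used here.

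Values were moved to the log2(RPKM + 0.1) scale and tested with limma 3.58.1 (R 4.3.3, mean-variance trend, two-sided) over the 15112 rows with a mean above 0.5 RPM in WT or KO, and tested on simulated data with known changes. The 12 time points of a genotype served as its replicates in the KO to WT test, and nothing in the labels says that they were separate cultures beyond the pooled embryoid bodies, so p values measure the spread between these libraries. An SD over the 12 time points holds change over time as well as noise. Means and ratios were computed in Python 3.11.15 with pandas 2.3.3 and numpy 2.4.6, and figures drawn with matplotlib 3.10.9. Exons and transcript sequences were taken from GENCODE M21 and promoters from RefSeq GRCm38.p6. Motifs were searched after the list of letters given in the text.

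Named were all Gnas and Nespas rows, the 5 table rows on each side, the 5 genes most like each row, and from each list up to 4 genes with the largest fold change among those that passed the test with a mean of at least 1 RPKM, plus the gene with the highest level. Gnal, Nanog, Pou5f1, Pcsk1, Chga and Scg3 were named outside this rule. A gene that this rule names among the Gs-coupled receptors is not reported here, although it is counted in the totals. The locus and the lists were chosen with earlier results of these data known. Alternatives covered the pseudocount, the filter on low values, quantile normalization and median-ratio scaling, the period, the time point as a block, the trend and rhythm as covariates, and libraries left out.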

Additional observations from a re-analysis of the deposited data

How the results depend on the processing

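The KO to WT ratios of Nespas and the Nesp row moved by less than the SD of the 12 same-hour ratios under every alternative. Those of the XL rows moved by more than this SD under quantile normalization only, from 0.766 to 0.717 (uc008oeu.2) and 0.723 (uc008oew.2). Of 212 tests over time under alternatives, 0 had an adjusted p under 0.05, and the lowest was 0.348. They count each XL row apart although both hold the same fragments. They also count tests on the KO values of Nespas, which are too thin to decide. The sign of slopes near 0 turned in the XL rows: in WT to -0.0080 for uc008oew.2 and in KO to -0.025 for uc008oeu.2 and -0.031 for uc008oew.2 under quantile normalization, and the difference of slopes to 0.026 in both without the 12 h libraries and to 0.018 in both without cosine and sine. Rows called rhythmic in WT went from 6 to 2 at a period of 22 h and to 2 at 26 h, and in KO from 12 to 7 at 22 h. Without the 12 h libraries 1 row differed in rhythm, in place of 0, and the rows with a trend in KO went from 474 to 256, or to 314 with no filter on low values. The cause of these moves was not tested.

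The time point does not pair the libraries by a label, and the deviations of WT and KO libraries of the same hour had an r over 0.1 in 8 of 12 pairs, with a mean of 0.208, and 5 of 12 WT libraries were most like the KO library of their own hour. With the time point as a replicate block, 1960 rows were higher and 2414 lower in KO, against 1743 and 2227 without it, 3 genes of the protein kinase A list fell in place of 1, and the smooth muscle gene Myh11 no longer passed (adjusted p = 0.0731). Of 240 values of 30 named list genes under alternatives, 15 no longer passed, those of Adcy6, Adcy9, Stmn2, Myh11 and Tagln, and 0 reversed. Without the WT libraries of 36 and 44 h, an alternative chosen after seeing the data, 1424 rows rose and 1773 fell, 1 adenylyl cyclase fell in place of 3, 6 neuroendocrine markers fell in place of 9 and 2 mesoderm markers rose in place of 5. With a mean of at least 1 RPKM required, 1 neuroendocrine marker fell in place of 9, 1 Gs-coupled receptor rose in place of 3 and 1 β or γ subunit fell in place of 3. That limit also left fewer genes to test in each of these lists. With no filter 7 receptors rose, 1 adenylyl cyclase rose in place of 0, and 3 mesoderm markers rose in place of 5. With trend and rhythm as covariates 2 α subunits, 2 receptors and 2 protein kinase A genes fell in place of 1 each, and with quantile normalization 1 protein kinase A gene rose in place of 0. Depth limits Nespas in KO the most, with 61.5 fragments in all.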

Other observations

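Markers of further cell types in these mixed cultures were counted. Of 8 mesoderm and smooth muscle markers 5 rose in KO and 0 fell (limma, adjusted p under 0.05), where 11.5% of all expressed rows rose. The count was 3 with no filter on low values and 2 without the WT libraries of 36 and 44 h. The smooth muscle genes Tagln and Cnn1 rose from 101 to 122 RPKM and from 1.86 to 2.70, with limma adjusted p of 0.0178 and 0.0115. Without the WT libraries of 36 and 44 h Tagln did not pass (limma adjusted p = 0.0515). The smooth muscle gene Myh11 had means of 2.32 and 3.07 RPKM, with a limma adjusted p of 0.0337 that became 0.0731 once time point was fitted as a block. The collagen gene Col1a1 rose from 842 ± 64.8 to 972 ± 81.8 (0.00507). The summed level of the 8 ranged from 2450 to 2874 RPKM in WT and from 2629 to 3137 in KO, so the ranges overlapped. Whether this bears on the levels of the Gnas rows was not tested.

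Of 6 endoderm markers 0 passed in either direction. Afp, the fetal serum protein of yolk sac and liver, had means of 165 ± 219 RPKM in WT and 174 ± 233 in KO (limma adjusted p = 0.920), and the summed level ranged from 78.1 to 1016 RPKM in WT and from 81.8 to 1016 in KO. Of 4 expressed pluripotency markers 0 passed, and Klf4, which differentiated cells also express, had means of 12.3 and 12.5 RPKM.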
